A study of Mus musculus with 6 samples.

Results

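The genes described here are the Wnt ligands, their receptors, their secreted antagonists and agonists, and a small set of nuclear factors and feedback genes of the same pathway. They are defined by mouse gene symbol: every gene named Wnt, Fzd, Sfrp, Dkk or Rspo followed by a family number, together with Lrp5, Lrp6, Wif1, Sost, Axin2, Lef1, Tcf7, Tcf7l2, Nkd1, Nkd2, Rnf43, Znrf3 and Ctnnb1. The rule found 54 of the 53801 genes in the count files. By role these were 19 ligands, 12 receptors, 10 secreted antagonists, 4 R-spondins, 4 transducer and nuclear factors and 5 feedback genes.

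MC3T3-E1 is a mouse pre-osteoblast line. The study compared 3 Control libraries, from cells infected with a lentivirus carrying a scrambled non-silencing hairpin, with 3 Hdac4-knockdown libraries, from cells infected with a lentivirus carrying a hairpin against Hdac4, a class II histone deacetylase. Both groups were grown in the same medium, selected in 5 µg/mL puromycin for 7 days and express the vector's ZsGreen1 marker. The question was which genes differ once Hdac4 is reduced in pre-osteoblasts. Each group carried 1 hairpin, and whether its cells came from more than 1 infection is not given in the sources used here, so an effect of lowering Hdac4 and any other difference between the infected cells cannot be told apart. The labels call the 3 libraries of a group biological replicates from independent RNA samples, but whether these came from separate cultures is not given in the sources used here, and the p-values measure only the spread between these samples.

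Wnt proteins are lipid-modified secreted signals that bind Frizzled receptors. With the co-receptors Lrp5 and Lrp6, a Wnt and a Frizzled stop the destruction of beta-catenin, which enters the nucleus and acts through the DNA-binding proteins Lef1, Tcf7 and Tcf7l2; other Wnts act through Ror receptors without beta-catenin. Antagonists either bind the Wnt (Sfrp, Wif1) or the co-receptor (Dkk, Sost), whereas R-spondins keep the receptors at the cell surface. In bone, signalling through Lrp5 and beta-catenin favours osteoblast formation, and the antagonist Sost is made by osteocytes.

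The libraries held between 29096544 and 31651826 counts on genes. Hdac4 was counted between 1136 and 1243 times in Control libraries and between 887 and 950 times in Hdac4-knockdown libraries, with a log2 fold change of -0.44 with an SE of 0.057 (adjusted p = 8.98e-07). Of the osteoblast lineage markers, Sp7 (7 counts or fewer in Control libraries), Col1a1 and Dmp1 were higher and Spp1 lower in Hdac4-knockdown libraries. Runx2 was called higher at 1.14-fold with overlapping groups, and Phex was not called. Alpl had 3 counts or fewer in every library, although pre-osteoblasts usually carry it. Of the 14531 genes that passed the count filter, 75.1% were called changed (adjusted p below 0.05 in edgeR's quasi-likelihood test and a log2 fold change beyond 0.05), 38% higher and 37.1% lower in Hdac4-knockdown libraries, so a call by itself does not set a gene apart here. For 27.1% of the genes the called change was at least 2-fold.

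The hairpin sequence and 3 member promoters are printed here. The Hdac4-shRNA3 target is shown because it is the agent meant to lower Hdac4. In the GENCODE M21 transcripts its full 21 bases matched 3 transcripts of Hdac4 and none of the 54 members. Partial matches, through which a hairpin can also act, were not searched. The scrambled sequence matched no transcript in full. The promoters are the 250 bases before a RefSeq start site (GRCm38.p6, gene strand, capitals marking CpG pairs), each start site being also a GENCODE start. Dkk2 is shown as the member that fell most, Wnt10b as the ligand with the most reads per length, and Axin2 as the feedback gene most used to read the pathway.
Hdac4-shRNA3: gcatgaggcacagttgcatga
Dkk2 promoter: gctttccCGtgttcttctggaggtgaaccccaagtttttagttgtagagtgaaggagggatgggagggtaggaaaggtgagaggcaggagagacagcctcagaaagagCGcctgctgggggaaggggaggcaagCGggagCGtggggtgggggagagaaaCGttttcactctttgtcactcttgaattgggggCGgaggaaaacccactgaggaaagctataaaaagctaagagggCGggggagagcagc
Wnt10b promoter: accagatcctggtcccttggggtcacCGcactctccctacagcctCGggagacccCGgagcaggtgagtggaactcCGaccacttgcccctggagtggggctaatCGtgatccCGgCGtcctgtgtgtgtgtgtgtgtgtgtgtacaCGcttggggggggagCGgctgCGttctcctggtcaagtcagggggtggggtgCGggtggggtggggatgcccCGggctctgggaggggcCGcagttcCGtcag
Axin2 promoter: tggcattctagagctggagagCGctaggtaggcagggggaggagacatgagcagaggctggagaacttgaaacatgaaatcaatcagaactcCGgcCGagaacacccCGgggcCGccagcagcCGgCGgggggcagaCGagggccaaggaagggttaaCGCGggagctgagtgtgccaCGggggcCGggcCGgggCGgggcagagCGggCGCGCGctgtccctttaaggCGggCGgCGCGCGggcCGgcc
The Dkk2 window is chr3:132085042-132085291 on the plus strand, the Wnt10b window chr15:98778151-98778400 on the minus strand and the Axin2 window chr11:108920099-108920348 on the plus strand. They hold 7, 14 and 24 CpG pairs and have a GC content of 55.6%, 66.8% and 69.2%. RefSeq windows were at hand for 37 of the members, 47 windows in all, and not for Dkk3, Wnt5a, Wnt7b, Fzd3 and Rspo2 among others. The TCF/LEF core CTTTGAT, or its reverse complement ATCAAAG, occurred in 2 of these 47 windows (4.26%; Wnt11 and Wnt5b), and in 3.21% of all 32851 mouse windows. CTA and TAG separated by any 4 bases occurred in 1 of the 47 (2.13%, Rnf43) and in 3.2% of all windows. This pattern is looser than the MEF2 box, with its A or T centre, in that centre only. Boxes with other end bases were not searched. The Rnf43 match, ctacctgtag, lacks that centre and is not a MEF2 box. None of the 3 printed promoters holds either pattern.

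Of the 54 members, 33 passed the count filter and could be tested. In Hdac4-knockdown libraries 14 were higher, 10 were lower and 9 did not pass the test, so that 72.7% of the tested members were called, beside 75.1% of all tested genes. At 2-fold or more, 8 were higher and 6 lower, which is 42.4% of the tested members beside 27.1% of all tested genes. The groups of libraries did not overlap for 25 of the 33 members, or 75.8%, beside 76.8% of all tested genes; for these 25 the exact permutation test (two-sided) gave p = 0.1, the smallest value that 3 libraries against 3 allow, so calls rest on the fit across all genes. The median log2 fold change of the tested members was 0.15, and 0.014 over all tested genes. Its median size without regard to sign was 0.86, and 0.46 over all tested genes. These shares and medians are descriptions, since neither this list nor the other pathway lists were drawn up independently of the data.

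**Figure D1:**
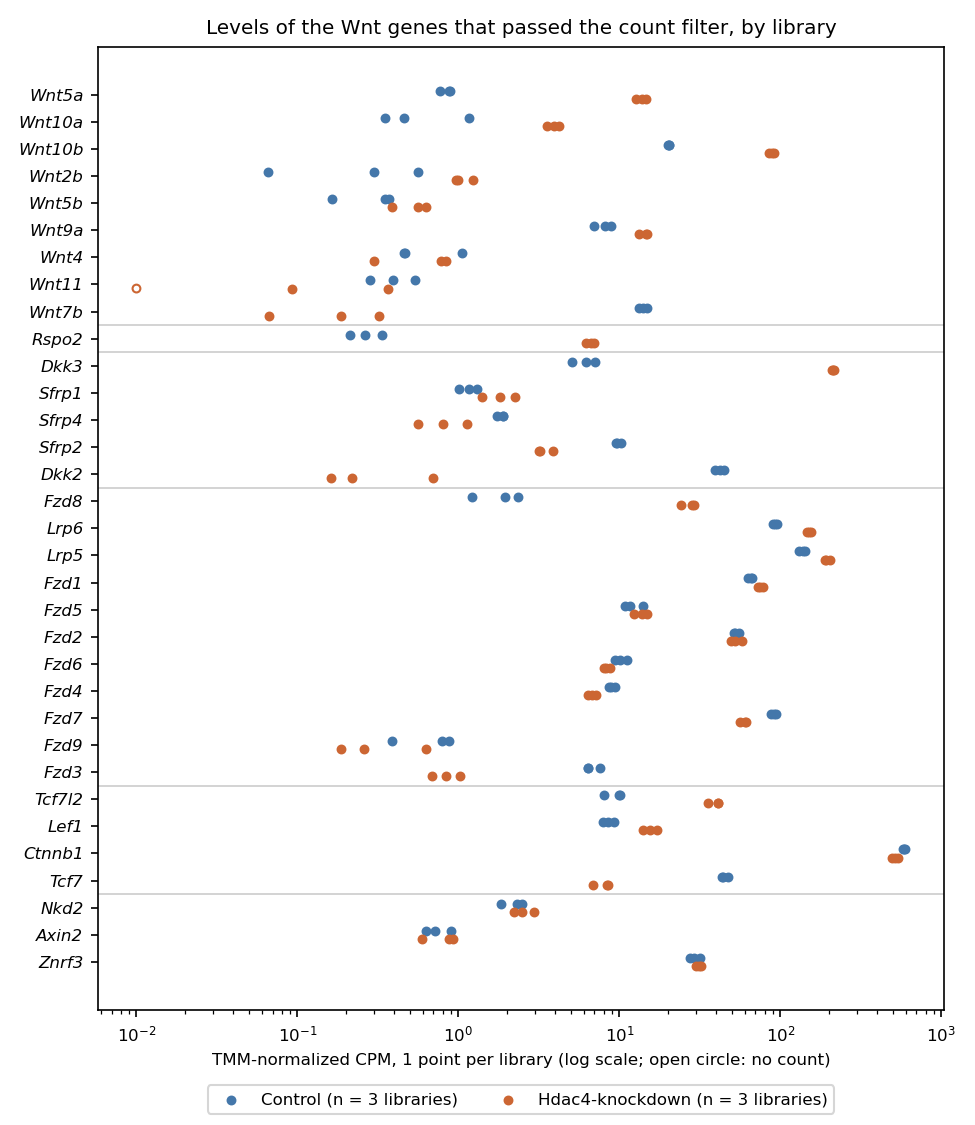
Normalized level of each tested member in each library, in CPM (counts scaled to the library's normalized size) on a log axis, with 1 point per library (3 Control in blue, 3 Hdac4-knockdown in orange), grouped by role; the open circle marks a library without a count. The points of Dkk2 and Wnt7b lie far to the left in Hdac4-knockdown libraries and those of Dkk3, Wnt5a, Fzd8 and Rspo2 far to the right, while the points of Fzd2, Axin2 and Znrf3 overlap.

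The set of ligands changed in make-up. Wnt10b, Wnt5a, Wnt9a, Wnt10a and Wnt2b rose in Hdac4-knockdown libraries, Wnt7b fell to 1.37% of its Control level, and Wnt4, Wnt5b and Wnt11 did not pass the test. Of the 19 ligands 9 were tested, with a median log2 fold change of 0.84. Since these are bulk samples, fewer cells making a transcript and less of it per cell cannot be told apart for any gene below.

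Wnt10b (ENSMUSG00000022996; chromosome 15, 98770712 to 98778150), a ligand that acts through beta-catenin and is known to favour bone over fat, was at 20.2, 20.0 and 20.3 CPM in Control libraries and at 85.5, 88.2 and 90.8 CPM in Hdac4-knockdown libraries. It rose 4.37-fold, with a log2 fold change of 2.13 with an SE of 0.054 (adjusted p = 8.84e-18), and every Hdac4-knockdown library lay far above every Control library. Its neighbour Wnt1, 11706 bases away on the opposite strand, had 8 counts or fewer in every library.

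Wnt7b (ENSMUSG00000022382; chromosome 15, 85535437 to 85582473), a ligand made by many epithelia and by osteoblast precursors, moved the other way. It was counted 407, 421 and 421 times in Control libraries and 10, 6 and 2 times in Hdac4-knockdown libraries. On the CPM scale this was 14.1 ± 0.726 against 0.192 ± 0.128 (SD, n = 3), a log2 fold change of -6.16 with an SE of 0.216 (adjusted p = 1.68e-15). The second most abundant ligand of Control cells was thus close to the level of a few reads, and the groups were widely separated. An antisense gene shares 6.61% of its exon bases, where reads without strand count for neither gene.

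Wnt5a (ENSMUSG00000021994; chromosome 14, 28504750 to 28527448), the ligand best known for signalling through Ror2 without beta-catenin, was counted 27, 23 and 25 times in Control libraries and 454, 447 and 382 times in Hdac4-knockdown libraries. Its level rose 16.3-fold, from 0.843 ± 0.0647 to 13.7 ± 0.997 CPM (SD, n = 3), with a log2 fold change of 4.02 with an SE of 0.147 (adjusted p = 3.15e-15). All Hdac4-knockdown libraries were high and all Control libraries low.

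Wnt9a, a ligand that takes part in joint formation, was at 8.18, 8.85 and 6.91 CPM in Control libraries and at 14.6, 14.8 and 13.2 CPM in Hdac4-knockdown libraries. Its log2 fold change was 0.83 with an SE of 0.101 (adjusted p = 4.39e-07), a rise of 1.78-fold without overlap. Wnt10a, the paralog of Wnt10b, was counted 14, 35 and 10 times in Control libraries and 122, 135 and 107 times in Hdac4-knockdown libraries. It rose with a log2 fold change of 2.55 with an SE of 0.284 (adjusted p = 1.21e-07), and with single libraries left out it ranged from 2.25 (without Control replicate 3) to 3.24 (without Control replicate 2, its highest Control library). Wnt2b, another ligand of the beta-catenin branch, was counted 2, 9 and 16 times in Control libraries and 30, 40 and 30 times in Hdac4-knockdown libraries. Its log2 fold change was 1.80 with an SE of 0.441 (adjusted p = 0.00114), and with single libraries left out it ranged from 1.30 (without Control replicate 1, adjusted p = 0.00863) to 2.52 (without Control replicate 3). For these 3 ligands the groups did not overlap, although Wnt2b rests on few reads.

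The 3 ligands that did not pass the test all had low counts. Wnt5b, the close paralog of Wnt5a, was counted 5, 11 and 10 times in Control libraries and 12, 18 and 19 times in Hdac4-knockdown libraries, a log2 fold change of 0.84 (95% interval -0.07 to 1.74, adjusted p = 0.0857). Its groups did not overlap, and the interval leaves room for no change and for a change beyond 2-fold. Wnt4 was counted 32, 14 and 13 times in Control libraries and 24, 27 and 9 times in Hdac4-knockdown libraries, with a 95% interval of -0.92 to 0.84 on the log2 scale. Wnt11 was counted 12, 16 and 8 times in Control libraries and 0, 3 and 11 times in Hdac4-knockdown libraries, a log2 fold change of -1.40 (95% interval -2.76 to -0.04, adjusted p = 0.0586). This value moved with single libraries and with the method: it was -2.98 without Hdac4-knockdown replicate 3 (adjusted p = 0.00364), -0.82 without Hdac4-knockdown replicate 1 (adjusted p = 0.226) and -2.23 with limma-voom on all libraries (adjusted p = 0.0146).

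The remaining 10 ligands were below the filter. Wnt3a, Wnt8a and Wnt9b had no count in any library. A count of 0 allows up to 3 counts (counting error only). By raw library size, without the normalization used for other CPM, that is 0.0948 to 0.103 CPM depending on the library. Wnt1, Wnt2, Wnt3, Wnt6, Wnt7a, Wnt8b and Wnt16 ranged from 0 to 8 counts per library. Of the neighbouring Wnt pairs of the genome, Wnt10b with Wnt1, Wnt10a with Wnt6 (6193 bases apart) and Wnt9a with Wnt3a (16175 bases apart) each joined a ligand that rose to one below the filter, and in the pair of Wnt3 with Wnt9b (24328 bases apart) both were below it.

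Levels of different genes were compared as CPM per kb of exon. On this scale Wnt10b was the highest ligand in both groups, at 5.93 ± 0.0358 in Control and 25.9 ± 0.781 in Hdac4-knockdown libraries (SD, n = 3). All 19 ligands together summed to 12.1 ± 0.358 CPM per kb in Control and 34.4 ± 0.501 in Hdac4-knockdown libraries, a ratio of 2.85, and without Wnt10b to 6.12 ± 0.394 and 8.45 ± 0.517, a ratio of 1.38. Wnt10b made up 49.3% of that sum in Control and 75.4% in Hdac4-knockdown libraries. Wnt7b, second in Control libraries with 22.7% to 25.7%, and Wnt9a, next with 17.7% to 21.4%, did not overlap. In Hdac4-knockdown libraries Wnt9a came second at 12.4%, followed by Wnt5a at 5.12% and Wnt10a at 4.59%, whose values overlapped between libraries, while Wnt7b held 0.115%.

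**Figure D2:**
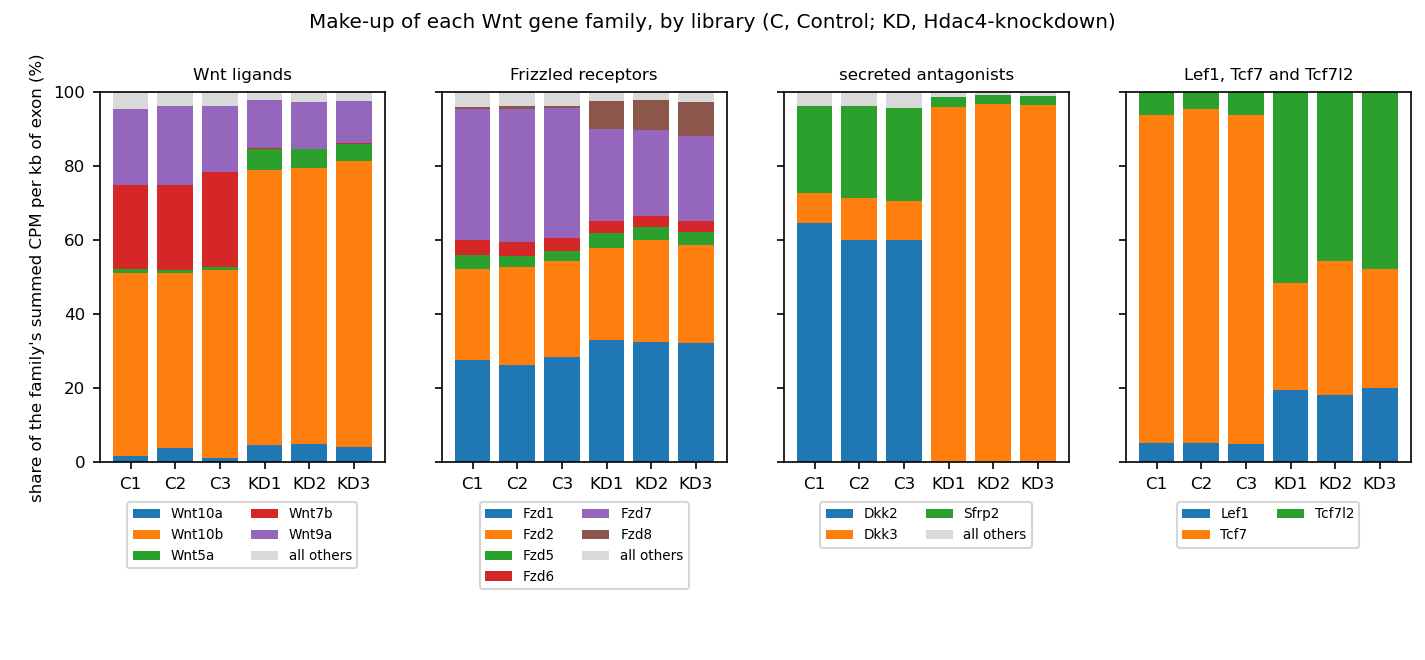
Share of each gene in the summed level of its family (percent of CPM per kb of exon), with 1 bar per library (C1 to C3, Control; KD1 to KD3, Hdac4-knockdown) and 1 panel per family; genes under 3% in every library are drawn together in grey. Bars of the same group resemble each other, and between the groups Dkk3 replaces Dkk2 among the antagonists, Wnt7b is lost among the ligands and Tcf7 shrinks beside Tcf7l2 and Lef1. Tcf7l1, which the rule does not match, is not drawn.

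Among the secreted antagonists the most abundant gene was exchanged: Dkk2 was nearly lost and Dkk3 became dominant. All 5 antagonists that passed the filter were called, beside 75.1% of all tested genes. Dkk3 and Sfrp1 were higher and Dkk2, Sfrp2 and Sfrp4 lower, with a median log2 fold change of -1.15.

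Dkk2 (ENSMUSG00000028031; chromosome 3, 132085292 to 132180304), which binds Lrp5 and Lrp6 and is needed for late osteoblast maturation, was counted 1371, 1253 and 1121 times in Control libraries and 5, 7 and 21 times in Hdac4-knockdown libraries. Its level fell from 42.0 ± 2.77 to 0.359 ± 0.295 CPM (SD, n = 3), 117-fold lower, with a log2 fold change of -6.88 with an SE of 0.176 (adjusted p = 1.06e-17). The groups lay far apart, and with single libraries left out the log2 fold change ranged from -7.75 (without Hdac4-knockdown replicate 3, the highest of its group) to -6.53.

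Dkk3 (ENSMUSG00000030772; chromosome 7, 112116017 to 112159057), a divergent family member that is not a typical Lrp6 ligand, was counted 155, 212 and 176 times in Control libraries and 6421, 6866 and 6493 times in Hdac4-knockdown libraries. It rose 34.7-fold, from 6.11 ± 1.01 to 212 ± 4.17 CPM (SD, n = 3), with a log2 fold change of 5.12 with an SE of 0.073 (adjusted p = 1.46e-21). No other member rose by as much, and the groups were again widely separated.

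Sfrp2, a secreted Frizzled-related protein that binds Wnts, was at 9.56, 10.2 and 9.61 CPM in Control libraries and at 3.85, 3.17 and 3.19 CPM in Hdac4-knockdown libraries. Its log2 fold change was -1.52 with an SE of 0.122 (adjusted p = 8.89e-10), with an antisense gene sharing 16.1% of its exon bases. Sfrp4, the family member linked to cortical bone thickness, was counted 58, 52 and 54 times in Control libraries and 35, 18 and 24 times in Hdac4-knockdown libraries, a log2 fold change of -1.15 with an SE of 0.275 (adjusted p = 0.000893). Both fell in every Hdac4-knockdown library. Sfrp1, which restrains bone formation in mice, was counted 31, 35 and 37 times in Control libraries and 45 to 68 times in Hdac4-knockdown libraries, with a log2 fold change of 0.65 with an SE of 0.254 (adjusted p = 0.0272). This call was lost when Control replicate 1, Control replicate 2, Hdac4-knockdown replicate 1 or Hdac4-knockdown replicate 3 was left out, with adjusted p-values of 0.0964, 0.0575, 0.0526 and 0.151.

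Sost, the osteocyte antagonist that binds Lrp5 and Lrp6, and Dkk4 had no count in any library. Dkk1, Wif1 and Sfrp5 had 3 counts or fewer in each. The antagonists summed to 18.4 ± 0.64 CPM per kb in Control and 65.5 ± 1.12 in Hdac4-knockdown libraries (SD, n = 3), a ratio of 3.56. Dkk2 held 61.6% of that sum in Control and 0.147% in Hdac4-knockdown libraries, and Dkk3 held 9.89% and 96.4%. Without Dkk3 the sum went the other way, from 16.6 ± 0.709 to 2.34 ± 0.278 CPM per kb (SD, n = 3), a ratio of 0.141, so the higher sum came from Dkk3. Sfrp2 made up 24.7% of the sum of all antagonists in Control and 2.41% in Hdac4-knockdown libraries.

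Of the R-spondins, which bind Lgr receptors and stabilize Frizzleds at the membrane, only Rspo2 passed the filter. Rspo2 (ENSMUSG00000051920; chromosome 15, 43020794 to 43170826) was counted 8, 10 and 6 times in Control libraries and 193, 214 and 209 times in Hdac4-knockdown libraries. It rose 24.6-fold with a log2 fold change of 4.59 with an SE of 0.225 (adjusted p = 3.51e-13), the groups being far apart. Rspo1 and Rspo3 had 0 to 3 counts per library and Rspo4 had none.

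Of the 11 receptors tested, Fzd8, Fzd1, Lrp5 and Lrp6 rose, Fzd3, Fzd4, Fzd6 and Fzd7 fell, and Fzd2, Fzd5 and Fzd9 did not pass the test. Their median log2 fold change, that of Fzd2, was -0.00145. Of the 11, 2 changed by 2-fold or more (18.2%, beside 27.1% of all tested genes). Fzd10 had no count in any library.

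Fzd8 and Fzd3, both 7-pass receptors with an extracellular Wnt-binding domain, moved most and in opposite directions. Fzd8 was counted 37, 70 and 56 times in Control libraries and 747, 909 and 879 times in Hdac4-knockdown libraries, a 14.8-fold rise with a log2 fold change of 3.89 with an SE of 0.141 (adjusted p = 2.93e-15). Fzd3, known for axon guidance and planar polarity, was counted 233, 192 and 182 times in Control libraries and 26, 22 and 31 times in Hdac4-knockdown libraries. Its log2 fold change was -3.00 with an SE of 0.187 (adjusted p = 1.76e-11). Neither gene's groups came near each other.

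The 3 most abundant Frizzleds had log2 fold changes below 1 in size. Fzd7 was at 91.6, 93.5 and 88.0 CPM in Control libraries and at 60.9, 60.0 and 55.8 CPM in Hdac4-knockdown libraries, a log2 fold change of -0.63 with an SE of 0.049 (adjusted p = 6.73e-10). Fzd1 was at 65.6, 62.9 and 66.3 CPM in Control libraries and at 74.5, 77.9 and 72.4 CPM in Hdac4-knockdown libraries, a log2 fold change of 0.21 with an SE of 0.049 (adjusted p = 0.0008). The groups did not overlap for either gene, with a wide gap for Fzd7 and a narrow one for Fzd1. Fzd2 was at 51.6, 55.4 and 52.5 CPM in Control libraries and at 49.4, 57.9 and 52.1 CPM in Hdac4-knockdown libraries. Its groups overlapped and the 95% interval of its log2 fold change ran from -0.13 to 0.12 (adjusted p = 0.984).

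Fzd4, a receptor known from retinal vessels, was at 8.90, 8.59 and 9.40 CPM in Control libraries and at 7.14, 6.36 and 6.74 CPM in Hdac4-knockdown libraries, a log2 fold change of -0.41 with an SE of 0.105 (adjusted p = 0.00174). Fzd6 was at 11.1, 10.1 and 9.44 CPM in Control libraries and at 8.31, 8.69 and 8.07 CPM in Hdac4-knockdown libraries, a log2 fold change of -0.29 with an SE of 0.1 (adjusted p = 0.0129), which lost its call without Control replicate 1 (adjusted p = 0.0667). The groups did not overlap for either gene. Fzd5 was at 14.1, 11.7 and 10.9 CPM in Control libraries and at 14.8, 13.8 and 12.3 CPM in Hdac4-knockdown libraries, with overlapping groups and a 95% interval of -0.06 to 0.37; without Control replicate 1 it passed the test at 0.26 (adjusted p = 0.0357). Exons of another gene share 17.8% of its bases. Fzd9 was counted 24, 26 and 11 times in Control libraries and 8, 6 and 19 times in Hdac4-knockdown libraries, a log2 fold change of -0.94 (95% interval -1.89 to 0.02, adjusted p = 0.0698). It passed the test without Control replicate 3, at -1.22 (adjusted p = 0.0301), and without Hdac4-knockdown replicate 3, at -1.60 (adjusted p = 0.0116).

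Both co-receptors rose by less than 2-fold. Lrp5, mutated in disorders of low and high bone mass, was at 130, 143 and 138 CPM in Control libraries and at 188, 204 and 191 CPM in Hdac4-knockdown libraries, a log2 fold change of 0.51 with an SE of 0.047 (adjusted p = 8.13e-09). Lrp6, its paralog, was at 93.0, 90.5 and 94.7 CPM in Control libraries and at 154, 150 and 146 CPM in Hdac4-knockdown libraries, a log2 fold change of 0.69 with an SE of 0.043 (adjusted p = 1.78e-11). The 3 Hdac4-knockdown libraries were above the 3 Control libraries for both.

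The summed level of the Frizzleds was 56.5 ± 0.843 CPM per kb in Control and 54.8 ± 2.05 in Hdac4-knockdown libraries (SD, n = 3), with overlapping libraries and a ratio of 0.971. Within this sum Fzd7 went from 35.6% to 23.7%, Fzd1 from 27.4% to 32.6% and Fzd8 from 0.545% to 8.3%, while Fzd2 was at 25.7% and 26.4%. Fzd7 led in Control libraries, followed by Fzd1 and Fzd2, whose shares overlapped. In Hdac4-knockdown libraries Fzd1 led, and Fzd2 and Fzd7 came next, with equal shares of 25% in replicate 1.

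**Figure D3:**
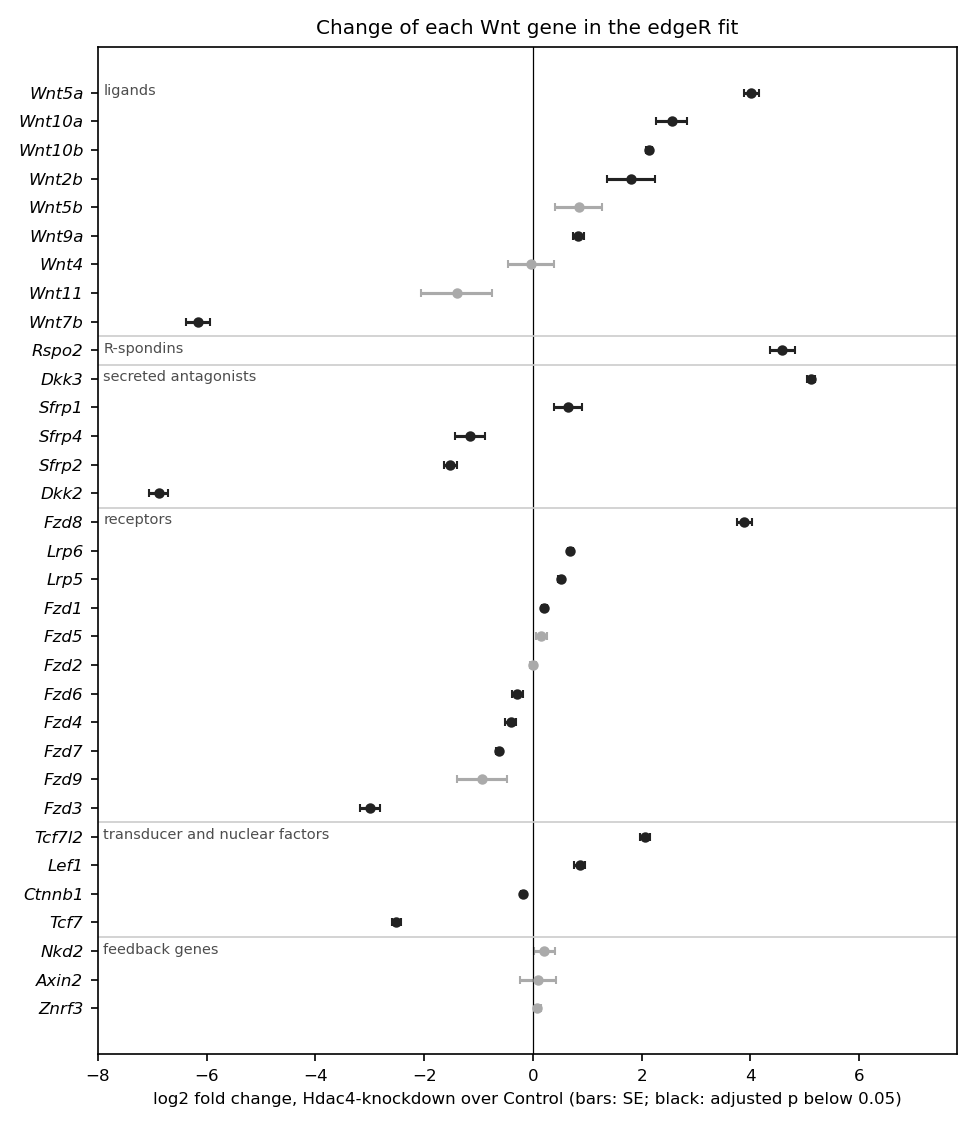
Log2 fold change of each tested member, Hdac4-knockdown over Control, in the edgeR fit (points; bars are 1 SE; 3 libraries per group), grouped by role, with black points for adjusted p below 0.05 and grey points for the others. Changes of the ligands and antagonists reach from -6.88 for Dkk2 to 5.12 for Dkk3, most receptors lie near 0, and the 3 feedback genes are grey.

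Downstream of the receptors, beta-catenin transcript changed little and the transcription factors it binds changed in their proportions. Ctnnb1, which encodes beta-catenin, was at 582, 598 and 577 CPM in Control libraries and at 496, 535 and 515 CPM in Hdac4-knockdown libraries. It fell with a log2 fold change of -0.18 with an SE of 0.039 (adjusted p = 0.000274), and its groups did not overlap. Exons of other genes, among them Ulk4, share 15.1% of its bases. These are RNA values and say nothing of beta-catenin protein, which the pathway controls by degradation.

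Tcf7 (ENSMUSG00000000782; chromosome 11, 52252371 to 52283014), which encodes the factor TCF1, was at 44.3, 47.3 and 43.2 CPM in Control libraries and at 6.82, 8.47 and 8.34 CPM in Hdac4-knockdown libraries. It fell to 17.5% of the Control level, a log2 fold change of -2.51 with an SE of 0.081 (adjusted p = 4.3e-16). Tcf7l2, which encodes TCF4, moved the opposite way, from 10.1, 8.05 and 9.96 CPM in Control libraries to 41.2, 35.4 and 41.0 CPM in Hdac4-knockdown libraries. Its rise was 4.18-fold, a log2 fold change of 2.06 with an SE of 0.088 (adjusted p = 4.18e-14). Lef1 was at 8.51, 9.22 and 7.93 CPM in Control libraries and at 15.6, 14 and 17.2 CPM in Hdac4-knockdown libraries, a log2 fold change of 0.86 with an SE of 0.098 (adjusted p = 1.58e-07), with an antisense gene over 13.7% of its exon bases. For all 3 genes the groups were apart.

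Summed, Lef1, Tcf7 and Tcf7l2 were at 19.2 ± 0.764 CPM per kb in Control and 9.24 ± 0.497 in Hdac4-knockdown libraries (SD, n = 3). Tcf7 made up 89.3% of the sum in Control and 32.5% in Hdac4-knockdown libraries, Tcf7l2 5.6% and 48.3%, and Lef1 5.07% and 19.2%. Of these 3 genes, Tcf7 led in each Control library and Tcf7l2 in each Hdac4-knockdown library. Tcf7l1, a TCF gene outside the rule and not in this sum, was at 4.11 ± 0.329 CPM per kb in Control libraries. In Hdac4-knockdown libraries Tcf7l1 was at 9.2 ± 0.828 CPM per kb (SD, n = 3), above Tcf7l2 at 4.47 ± 0.374.

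The feedback genes, which beta-catenin signalling itself induces in many tissues, did not pass the test. Axin2 (ENSMUSG00000000142; chromosome 11, 108920349 to 108950783), a scaffold of the beta-catenin destruction complex, was counted 22, 27 and 18 times in Control libraries and 27, 30 and 18 times in Hdac4-knockdown libraries. Its log2 fold change was 0.09, with a 95% interval of -0.59 to 0.77 (adjusted p = 0.806), and a change within that interval was not detectable at this depth. Znrf3, a ligase that removes Frizzleds from the membrane and is blocked by R-spondins, was at 27.5, 29.1 and 31.6 CPM in Control libraries and at 32.1, 29.9 and 31.1 CPM in Hdac4-knockdown libraries. Its 95% interval was -0.06 to 0.22, a tighter bound (adjusted p = 0.288). Nkd2, which binds Dishevelled, was counted 76, 55 and 66 times in Control libraries and 69, 95 and 75 times in Hdac4-knockdown libraries, with a 95% interval of -0.20 to 0.62. The groups overlapped for all 3. Rnf43, the paralog of Znrf3, had 6 counts or fewer per library, and Nkd1 had none.

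The other genes of the pathway were taken from lists that follow its steps. Of 76 such genes 61 were tested, 29 were higher and 22 lower in Hdac4-knockdown libraries (83.6% called, beside 75.1% of all tested genes), and 20 changed by 2-fold or more, or 32.8% beside 27.1%. Their median log2 fold change was 0.02. The counts by list below stand beside 38% higher and 37.1% lower of all tested genes.

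Of the genes for Wnt secretion and removal, 2 of 3 tested were lower and none higher. Wls, which carries Wnts to the cell surface, fell from 430 ± 4.74 to 203 ± 1.14 CPM (SD, n = 3), a log2 fold change of -1.08 (adjusted p = 1.37e-15). Of the other receptors and co-receptors 7 of 10 tested were higher and 1 lower. Ror2, a tyrosine kinase receptor for Wnt5a, rose from 1.43 ± 0.325 to 26.6 ± 0.635 CPM (SD, n = 3), a log2 fold change of 4.20 (adjusted p = 6.14e-17), and Ror1, its paralog, rose with a log2 fold change of 3.73. Ptk7, a further Wnt co-receptor of planar polarity, rose by 1.48, and Gpc4, a cell-surface proteoglycan, by 4.65 on the same scale. Of the other Wnt modulators, listed as secreted, 2 of 7 were tested and both were lower, among them the inhibitor Apcdd1 at -3.54. Both are membrane-bound, so no secreted modulator of this list was tested. Frzb, a secreted Frizzled-related gene whose symbol the rule does not match, had no count in any library.

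Of the cytoplasmic transducers 6 of 19 tested were higher and 9 lower. In the destruction complex, the kinase Gsk3b had a log2 fold change of -0.02 (95% interval -0.13 to 0.08) and the scaffold Axin1 one of 0.01 (95% interval -0.11 to 0.12), neither called. Apc, another scaffold, fell by 0.18, its paralog Apc2 by 0.46 and the second kinase Gsk3a by 0.38, while the priming kinase Csnk1a1 rose by 0.32. The Dishevelled genes, which relay the signal from Frizzled, differed among themselves: Dvl1 was not called at -0.05 (95% interval -0.17 to 0.07), Dvl2 fell by 0.32 and Dvl3 rose by 0.64. Csnk1e, a casein kinase of the pathway, fell by 1.11, and the Dishevelled-binding genes Dact1 and Dact3 rose by 2.74 and 1.69.

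Of the nuclear partners of beta-catenin 8 of 11 tested were higher, 4 of them by 2-fold or more, and 2 lower. Pygo1, which joins beta-catenin to methylated histone, rose by 3.00 on the log2 scale, its binding partner Bcl9 by 1.33, the co-repressor Tle4 by 1.72 and Tcf7l1, the most repressive TCF factor, by 1.16. Among planar polarity genes, which work without beta-catenin, 2 of 6 tested were higher and 4 lower: Prickle1 fell by 2.64 and Vangl2 by 1.70, whereas Prickle2 rose by 4.63. Of the other genes often used as Wnt and beta-catenin targets 7 of 12 tested were higher, 4 of them by 2-fold or more, and 3 lower. Ccn5, a matricellular protein, rose from 5.44 ± 0.363 to 177 ± 12.3 CPM (SD, n = 3), a log2 fold change of 5.03 (adjusted p = 1.28e-21). Tnfrsf11b, the decoy receptor osteoprotegerin that restrains osteoclasts, rose by 3.90, and the helix-loop-helix inhibitor Id2 fell by 1.02. Myc rose by 0.14 and Ccn4 by 0.12, and Cd44 fell by 0.49. Ccnd1 (-0.08) and Sox9 (0.02) were not called. Apcdd1 and Dact1 stand in this list too. Each of the named 2-fold genes had groups that did not overlap, beside 76.8% of all tested genes.

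**Figure D4:**
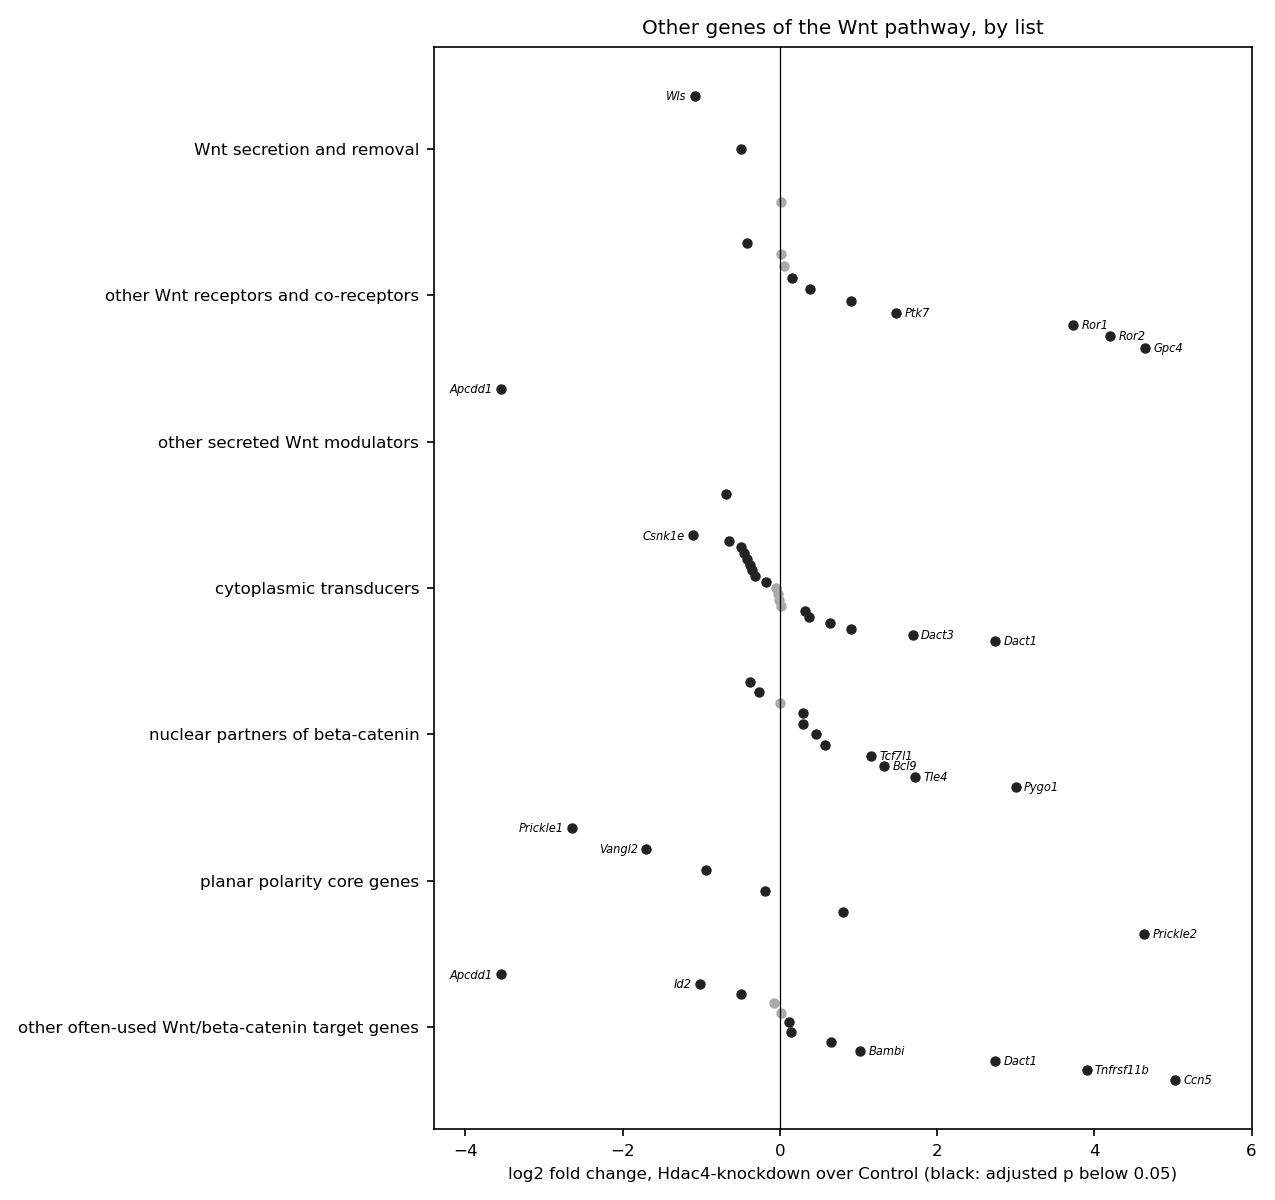
Log2 fold change of the other pathway genes, Hdac4-knockdown over Control (3 libraries each), with 1 point per tested gene and 1 row per list; black points have an adjusted p below 0.05, grey points do not, and names mark changes of 2-fold or more. The receptor and nuclear lists lean to the right, with Ror1, Ror2 and Gpc4 beyond 3, and the cytoplasmic list is centred near 0.

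Markers of several cell types moved with the groups, and their part in the Wnt gene changes was not tested. The 9 osteoblast lineage markers summed to 3560 to 3594 CPM in Control and 12933 to 13542 CPM in Hdac4-knockdown libraries, mostly Col1a1 and Spp1 (4 of 6 tested higher, 1 lower). The higher sum came from Col1a1, at a mean of 338 CPM in Control and 11015 CPM in Hdac4-knockdown libraries. Spp1 went the other way, from 3154 to 2046 CPM. The 6 skeletal muscle markers, all tested and all lower, summed to 131 to 140 CPM in Control and 19.5 to 20.9 CPM in Hdac4-knockdown libraries, with Myod1 and Myf5 highest. Neural and Schwann cell markers summed to 435 to 455 and 86.6 to 95.4 CPM (1 of 4 tested higher, 3 lower, Sox10 at 3 counts or fewer throughout), and adipocyte markers to 43.1 to 46.8 and 8.89 to 10.1 CPM (2 of 2 tested lower, Adipoq and Plin1 at 3 counts or fewer). Chondrocyte markers summed to 125 to 128 and 169 to 186 CPM (2 of 3 higher, Acan at 3 counts or fewer), with Sox9 highest and Col2a1 at 0.827 and 51.1 CPM. Endothelial markers summed to 0.36 to 0.668 and 5.61 to 6.42 CPM (2 of 2 higher), blood and macrophage markers to 1.6 to 2.59 and 2.69 to 3.13 CPM (1 of 2 higher, Adgre1 and Hbb-bs at 3 counts or fewer), and epithelial markers to 5.93 to 6.74 and 7.63 to 8.91 CPM (1 of 2 higher, Epcam and Krt5 at 3 counts or fewer).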

How the data were processed

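RNA was poly-A selected, prepared with an unstranded kit and sequenced on an Illumina instrument. The submitters' processing notes name FastQC, STAR 2.7.3a, HTSeq 0.12.4 and the build mm10. The authors deposited 1 table per library with raw read counts per Ensembl gene, not normalized. Lines naming no gene (reads outside genes, shared or multiply aligned; 14.3% to 15% of a library's reads) were left out. Of 53801 identifiers, 53706 matched GENCODE M21, which gave symbols, GRCm38 positions and exon lengths; promoter windows came from RefSeq (GRCm38.p6).

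The groups were tested by the quasi-likelihood method of edgeR 4.0.16 (R 4.3.3) on group alone, after TMM scaling and default filterByExpr, with Benjamini-Hochberg adjustment over the 14531 genes kept, and called at adjusted p below 0.05 with a log2 fold change beyond 0.05 in size. The biological coefficient of variation was 4.79%. The test was checked on simulated data. Intervals are 95% intervals of the fit. CPM are TMM-normalized, and levels between genes are per kb of merged exon. Replicates differed by more than sampling noise (chi-square per degree of freedom from 3.23 upwards). Figures were drawn with matplotlib 3.10.9.

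Every member is named: those with a mean of at least 100 counts in either group with each library's value, those from the filter up to 100 with counts, the others by their range. Of the other pathway lists, genes changed 2-fold with at least 100 counts are named, with Gsk3b, Apc, Axin1 and Dvl1 to Dvl3. Apc2, Gsk3a, Csnk1a1, Myc, Ccn4, Cd44, Ccnd1, Sox9 and Bambi were named after their values were seen. The members and lists were chosen with earlier results of these data known. The knockdown label reads Hdac4-shRNA, taken as Hdac4-shRNA3 from the study's account. Alternatives were other normalizations and count filters, DESeq2 1.42.0, limma-voom (limma 3.58.1), a replicate block and leaving out each library.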

Additional observations from a re-analysis of the deposited data

Results flagged for a closer look

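Reads outside annotated genes, which no comparison uses, made up a mean of 4.79% of the reads in Hdac4-knockdown libraries and 3.28% in Control libraries, without overlap (3.17% to 3.41% in Control, 4.64% to 5.07% in Hdac4-knockdown libraries). Rnf43, below the count filter, had 15 counts over the Hdac4-knockdown libraries (5, 4 and 6) and 2 over the Control libraries. Sfrp5, also below the filter, had 5 counts over the Hdac4-knockdown libraries (2, 2 and 1) and none in Control libraries. Wnt8b, below the filter as well, had 5 counts over the Hdac4-knockdown libraries (1, 1 and 3) and none in Control libraries. These 3 genes were flagged for their counts in Hdac4-knockdown libraries. Over all genes, 22148 to 22640 had a count in Hdac4-knockdown libraries and 19373 to 19797 in Control libraries. With no filter beyond 1 count the median log2 fold change of all genes was 0.252. A few more reads in Hdac4-knockdown libraries thus do not set these 3 genes apart.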

How the results depend on the processing

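Over 14 alternatives the number of members called stayed between 20 and 25 (24 as reported), of those at 2-fold between 10 and 16 (14), and of other pathway genes called between 47 and 52 (51), while the log2 fold change of Hdac4 stayed between -0.47 and -0.35. Requiring at least 10 counts in every library gave 20 and 10, because it left Dkk2, Wnt7b, Rspo2 and Wnt2b untested. Of 454 values of single members, 426 kept their direction and their side of the threshold. Values that changed sign belonged to 3 members that did not pass the test. Fzd2 was 0.000186 with DESeq2 size factors, 0.0555 with library size alone, 0.0881 with upper quartile normalization, 0.0363 with at least 10 counts in every library, 8.69e-05 with DESeq2, and between -0.0665 and 0.0571 with single libraries left out. Wnt4 was 0.0127 with library size alone, 0.045 with upper quartile normalization and between -0.29 and 0.46 with single libraries left out. Axin2 ranged from -0.0287 to 0.27 with single libraries left out. Upper quartile normalization moved the median of all genes from 0.014 to 0.103, called Fzd5 (0.24) and Znrf3 (0.17), lost Fzd6 (-0.20) and left Ctnnb1 at -0.095. The cause was not tested. With the replicate block, 25 members were called, Wnt11 being added at -1.49 (adjusted p = 0.0495). Whether same-numbered libraries were handled together is not given in the sources used here. Their deviations correlated at -0.0105, 0.0186 and 0.0149, so no shared replicate effect was visible. Members with few counts are limited by depth, and leaving out a library changed the calls of Sfrp1, Wnt11, Fzd5, Fzd6 and Fzd9.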
